A study of Mus musculus with 2 samples.

Results

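Mir770, Mir673, Mir493, Mir337, Mir540, Mir665, Mir341, Mir1188 and Mir370 are 9 microRNA genes of the imprinted Dlk1-Dio3 region of mouse chromosome 12. They were taken by their GENCODE M21 symbols from 2202 microRNA genes in the deposited tables. All 9 were found in both tables. Mir770 lies inside the long noncoding RNA gene Meg3. Mir673, Mir493, Mir337, Mir540 and Mir665 lie between Meg3 and Rtl1, and Mir341, Mir1188 and Mir370 lie inside the noncoding RNA gene Rian.

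Small RNA was sequenced from the hippocampus of female B6CASTF1/J mice, a cross of C57BL/6J and CAST/EiJ, at 14 days of age. The only group has 2 biological replicates, each labelled as 3 females, and the labels name no treatment. There is no control group, so the comparisons below set 1 library against the other. The females carry different numbers in the 2 replicates, under 1 donor record. The tissue label calls the sample a layer of the hippocampus and does not name the layer. Counts assigned to microRNA genes came to 4764797 in replicate 1 and 2852269 in replicate 2. Of 14 neuron marker genes (the copies of Mir124a, Mir9, Mir128, Mir132, Mir137, Mir138 and Mir129), 11 were detected, here meaning 10 or more counts in each library. The list summed to 26268 CPM (counts per 1000000 assigned counts) in replicate 1 and 27902 CPM in replicate 2. Mir124a-1, Mir124a-2 and Mir124a-3, the defining neuronal genes of that list, had 10, 2 and 0 counts in replicate 1 and 18, 1 and 1 in replicate 2. These genes encode the same mature microRNA, and reads that map to several places are listed apart from the genes. The part of that step in their low counts was not tested. Of 5 muscle markers, 3 had 0 counts in both libraries. These were copies of Mir1a and Mir133a, and reads that map to several places are not in their counts either. The list summed to 74.3 and 34.4 CPM, nearly all from Mir206, with 353 and 98 counts. Mir122, the liver marker, stood at 41.1 and 25.6 CPM.

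In imprinted regions, a gene is transcribed from the copy inherited from 1 parent. At Dlk1-Dio3 the protein-coding genes Dlk1, Rtl1 and Dio3 are transcribed from the paternal copy, while Meg3, the transcript antisense to Rtl1, Rian and Mirg are transcribed from the maternal copy, and these noncoding RNAs carry the microRNAs. Each microRNA gene gives a hairpin precursor. It is cut into a duplex of 2 arms (5p and 3p), of which 1 usually enters the silencing complex and pairs with messenger RNAs through its seed, bases 2 to 8. The region is strongly transcribed in the brain. The counts here are per precursor, so the arms are not separated, and the parental copies are not separated either.

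The mature sequences below, from RefSeq on GRCm38.p6, are those of the members that the results turn on. They include the most abundant gene (Mir770) and the gene with the largest difference between libraries (Mir370). Mir337 overlaps another microRNA gene, its opposite-strand partner Mir3544. Mir540 and Mir665 are 2 close neighbours that differed in opposite directions, and Mir341 holds a short repeat. Each sequence runs 5′ to 3′, with the seed in capitals.
miR-770-5p: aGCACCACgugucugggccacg
miR-770-3p: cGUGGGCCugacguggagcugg
miR-370-5p: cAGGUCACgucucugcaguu
miR-370-3p: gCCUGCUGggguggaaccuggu
miR-337-5p: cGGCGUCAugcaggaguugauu
miR-337-3p: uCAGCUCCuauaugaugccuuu
miR-3544-5p: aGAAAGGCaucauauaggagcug
miR-3544-3p: aCUCCUGCaugacgccguuccc
miR-540-5p: cAAGGGUCacccucugacucugu
miR-540-3p: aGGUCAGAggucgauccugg
miR-665-5p: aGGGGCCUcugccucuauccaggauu
miR-665-3p: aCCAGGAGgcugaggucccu
miR-341-5p: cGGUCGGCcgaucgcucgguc
miR-341-3p: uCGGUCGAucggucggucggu

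All 9 members had a hairpin and both arms in the RefSeq table. Their 18 arms carried 18 different seeds, so no 2 members belonged to a common seed family. For 15 arms, no other mouse gene in the table had the seed. The other 3 arms each shared it with 1 gene: miR-673-5p with Mir6985, miR-540-3p with Mir6915 and miR-370-5p with Mir1193. Mir6985 and Mir6915 were low, at 3.75 ± 1.15 and 4.55 ± 0.983 CPM (SD, n = 2). Mir1193, of the Mir379 to Mir410 array in the same region, stood at 118 ± 13.5 CPM, and its arm is printed for comparison with miR-370-5p.
miR-1193-3p: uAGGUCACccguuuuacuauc

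The members span 54.6 kb on the plus strand of chromosome 12 (GRCm38), from 109563692 to 109618336. Mir770 (ENSMUSG00000076451.1) lies at 109563692 to 109563785. Of the Meg3 transcripts, 4 run across it, and it falls in an exon of 1 and in introns of the other 3. Mir673 (ENSMUSG00000076316.1, 109571990 to 109572080), just past the end of Meg3, and Mir493 (ENSMUSG00000077025.2, 109580233 to 109580315) lie outside Meg3, Rtl1, Rian and Mirg. So do Mir337 (ENSMUSG00000065526.4, 109585789 to 109585885), Mir540 (ENSMUSG00000072900.2, 109586080 to 109586146) and Mir665 (ENSMUSG00000076313.1, 109586314 to 109586407), all within 619 bases. No other gene was checked as a host. Mir341 (ENSMUSG00000070101.1, 109611500 to 109611595), Mir1188 (ENSMUSG00000080406.1, 109611822 to 109611941) and Mir370 (ENSMUSG00000065433.1, 109618258 to 109618336) are in Rian introns, on the same strand as Rian.

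All 9 members were detected, against 18.6% of all microRNA genes. The lowest count of any member was 331, for Mir493 in replicate 2, so all 9 also passed a minimum of 100. Together they held 4.57% of assigned counts in replicate 1 (exact 95% interval 4.55 to 4.59) and 4.30% in replicate 2 (4.27 to 4.32), a mean of 4.43% ± 0.194 (SD, n = 2). These intervals cover counting error only, since reads without molecular identifiers are not independent molecules. Mir770 made up most of that share. Without it the other 8 members held 1.59% in replicate 1 and 0.943% in replicate 2.

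Mir770 had 142101 counts in replicate 1 and 95664 in replicate 2, or 29823 and 33540 CPM. It was the leading member in both libraries, at a mean of 31681 ± 2628 CPM (SD, n = 2). By mean level it ranked 7 among all 2202 genes, on counts that leave out reads mapping to several places. It exceeded the next member 3.71-fold in replicate 1, where that was Mir370, and 12.7-fold in replicate 2, where it was Mir337. Of all counts of the members, Mir770 held 65.2% in replicate 1 and 78.1% in replicate 2.

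Between Meg3 and Rtl1, Mir337 was the highest gene, with 2797 CPM in replicate 1 and 2638 in replicate 2. Mir540 followed at 1413 and 1004 CPM. Mir665 stood at 456 and 642 CPM, and Mir673 at 679 and 343 CPM. Mir673 was above Mir665 in replicate 1 and below it in replicate 2, so the order of these 2 genes is not settled by the pair of libraries. Mir493, which has been studied as a suppressor of liver metastasis in colon cancer, was the lowest member in both libraries at 143 and 116 CPM.

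In Rian, Mir370 had 8043 CPM in replicate 1 and 2116 in replicate 2, Mir341 had 2152 and 2420, and Mir1188 had 199.6 and 149.7. Mir370 is known in liver for lowering the fatty acid metabolism enzyme Cpt1a. It was next after Mir770 in replicate 1 and came behind Mir337 and Mir341 as well in replicate 2. Its mean of 5079 CPM carries an SD of 4192. Mir370 therefore cannot be placed against Mir337 and Mir341 beyond its spread, while Mir337 was above Mir341 in both libraries. Mir770, Mir540, Mir1188 and Mir493 held places 1, 5, 8 and 9 in both libraries.

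**Figure D1:**
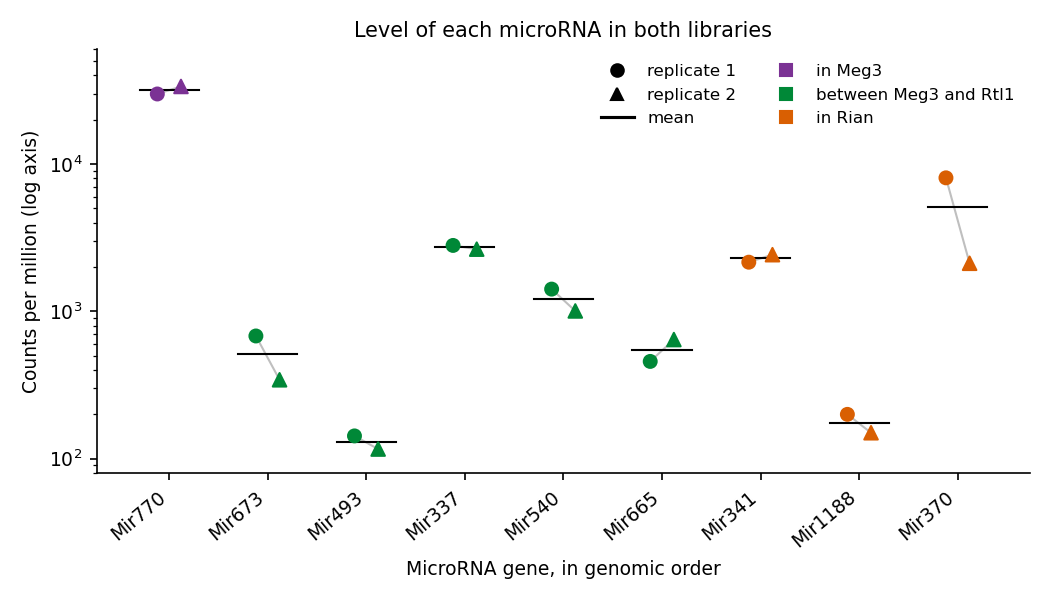
CPM (log axis) of the 9 genes in genomic order, with circles for replicate 1, triangles for replicate 2, a bar for the mean, and colour for the location. Mir770 sits at 29823 and 33540 CPM, above every other member, and Mir370 has the widest gap, from 8043 to 2116 CPM.

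Levels ran over a wide range inside 1 region. The mean of Mir770 was 245-fold that of Mir493, 209-fold in replicate 1 and 289-fold in replicate 2. Close neighbours also differed. Mir341 and Mir1188 lie 226 bases apart, and Mir341 had 10.8 counts for each count of Mir1188 in replicate 1 (95% interval 10.1 to 11.5) and 16.2 in replicate 2 (14.7 to 17.9). A mature microRNA is read whole, so CPM was not divided by length. Per kilobase of annotated precursor, Mir493 and Mir1188 exchange the last 2 places and the other 7 members keep theirs.

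**Figure D2:**
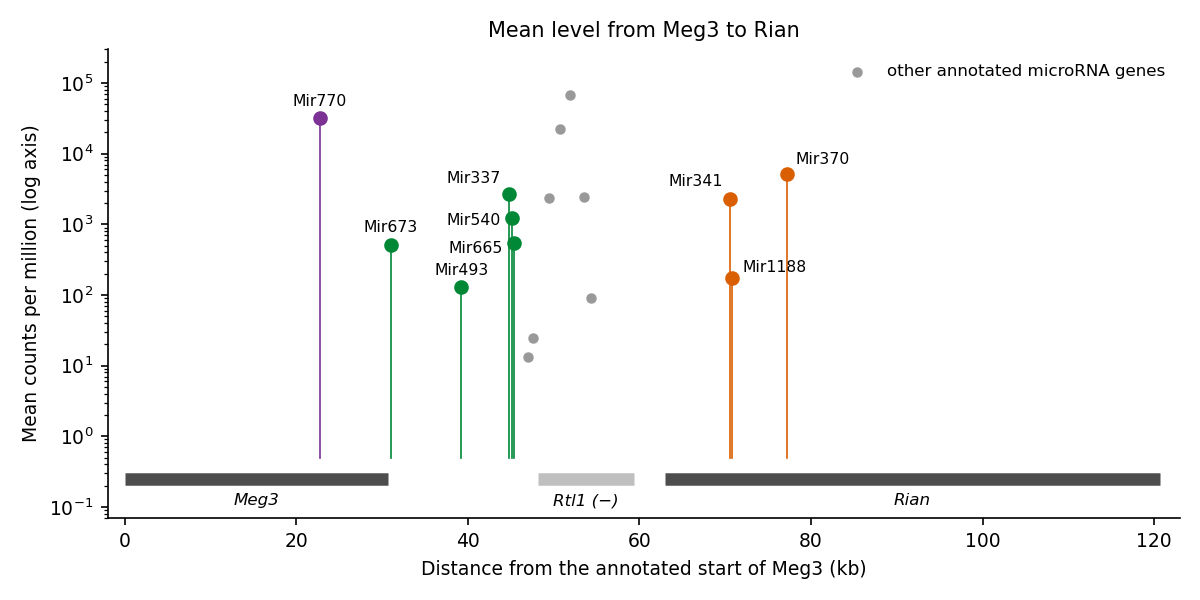
Mean CPM (log axis) of each microRNA gene against its distance in kb from the annotated start of Meg3, with the members coloured by location, other microRNA genes in grey, and bars below for the host genes (Rtl1 is on the minus strand). Genes with no count in either library are not drawn. The members lie on both sides of the genes over Rtl1, and Mir337, Mir540 and Mir665 sit together between Meg3 and Rtl1.

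Mir337 depended on strand. The 61 bases of Mir3544 lie wholly inside Mir337 on the opposite strand. On the sense strand, Mir337 had 13326 counts in replicate 1 and 7524 in replicate 2, while Mir3544 had 0 in both, which allows up to 0.630 CPM in replicate 1 and 1.05 in replicate 2 (3 counts). In the unstranded column Mir337 had 1 count in replicate 1 and 0 in replicate 2. That column lists 298200 and 181401 reads as ambiguous between genes, and the sense column lists 0. Counting without strand would therefore leave Mir337 out of the detected genes. In the column for the other strand, all 9 members had 0 counts in both libraries.

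Of the other annotated microRNA genes from Meg3 to Rtl1 or within Rian, named here after their values were seen, Mir3070a and Mir3070b were low. They lie between Mir665 and Rtl1 and stood at 13.3 ± 0.468 and 24.2 ± 1.99 CPM (SD, n = 2). Mir1906-1, inside Meg3, and Gm23912, inside Rian just before Mir370, had 0 counts in both libraries. Mir3070a, Mir3070b and Mir1906-1 have the names of gene copies. Reads that map to several places are not in their counts, and the part of that step was not tested.

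The hairpin sequences of the members differed in composition. GC content ran from 52.6% in Mir337 to 70.2% in Mir770, against a median of 50.8% over all 2202 precursors. The predicted minimum free energy of folding, lower for a more stable hairpin, was -58.2 kcal/mol for Mir770 and between -49.4 (Mir337) and -40.9 (Mir540) for the other 8. Mir341 held 7 copies of the letters GGTC on its own strand, the only strand searched. At least 7 copies were found in 7 of 2202 precursors, and 22.6% of precursors held any. The letters searched were those of the Mir341 repeat, so its place among the precursors is a description and no test. The longest run of bases that a member shared with a microRNA gene elsewhere, on either strand, was 12 to 14 bases, below the length of a mature microRNA. Matches outside annotated microRNA genes were not analysed here.

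The difference between the 2 libraries was uneven among the members. Each gene's log2 ratio sets replicate 2 over replicate 1, after edgeR's TMM method scaled the library sizes. A gene was called when an exact binomial test on its counts gave an adjusted p under 0.05, with Benjamini-Hochberg adjustment over the 450 genes whose 2 counts summed to 20 or more. This test compares these libraries, not conditions, and covers counting error only. By it, 3 of 9 members were higher in replicate 2, 4 were lower, and 2 did not pass. Over all tested genes 64.9% were called, 32.9% higher and 32.0% lower, so the 7 of 9 called are read against that share and are no result about the members. The members' median log2 ratio was -0.17, beside 0.01 over all genes tested, and their median absolute log2 ratio was 0.29, beside 0.51.

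With total counts in place of TMM scaling, log2 ratios shifted by -0.12 and the members split into 3 higher and 6 lower. Mir493 (-0.30) and Mir337 (-0.084) were the genes added to the lower ones. Over all tested genes the split was then 127 higher and 168 lower.

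Mir370 was the only member past 2-fold, against 22.0% of all tested genes. Past 1.5-fold there were 3 members (Mir370, Mir673 and Mir665), against 42.4% of tested genes. Its 38325 counts in replicate 1 and 6034 in replicate 2 gave -1.80 (log2, 95% counting interval -1.84 to -1.77), which is 3.49-fold lower in replicate 2. Of the 450 tested genes, 31 had a larger absolute ratio. Of 5 tested markers of choroid plexus and ciliated epithelium, 4 were lower in replicate 2 by the same test, against 32.0% of all tested genes. Of that list of 7 genes, 4 were detected, Mir449b was at 0, and the sum was 3951 CPM in replicate 1 and 1189 in replicate 2. Of 3 tested oligodendrocyte markers, 2 were higher in replicate 2, and the list of 4 (3 detected) summed to 1929 and 3198 CPM. Of 3 blood markers, all detected, 1 was higher, and the sums were 290 and 722 CPM. Of 11 tested neuron markers, 6 were higher and 3 lower. The 1 tested muscle marker, Mir206 (-0.99), and the liver marker Mir122 (-0.56) were also lower. For higher calls, the share over all tested genes was 32.9%. The part of these cell types in the result for Mir370 was not tested. In bulk tissue, fewer cells of a type and less RNA per cell cannot be told apart, nor can a difference between pools be told apart from one in library preparation.

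Mir673 was also lower in replicate 2, with 3237 and 977 counts and a log2 ratio of -0.87 (-0.97 to -0.76). Mir540, with 6734 and 2865 counts, gave -0.37 (-0.43 to -0.31). Mir1188, with 951 and 427 counts, gave -0.29 (-0.46 to -0.13). These 3 genes and Mir370 make up the members that were lower.

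In the other direction, Mir665 had 2175 and 1832 counts and a log2 ratio of 0.61 (0.52 to 0.71), the highest of the members. Mir770 and Mir341 both gave 0.29, with counting intervals of 0.28 to 0.30 and 0.25 to 0.34, although they lie in different host genes. Mir337 at 0.038 (-0.0031 to 0.079, adjusted p = 0.101) and Mir493 at -0.17 (-0.37 to 0.02, adjusted p = 0.108) did not pass the exact binomial test. Mir337 is above 0 under TMM scaling and below 0, at -0.084, under total counts.

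**Figure D3:**
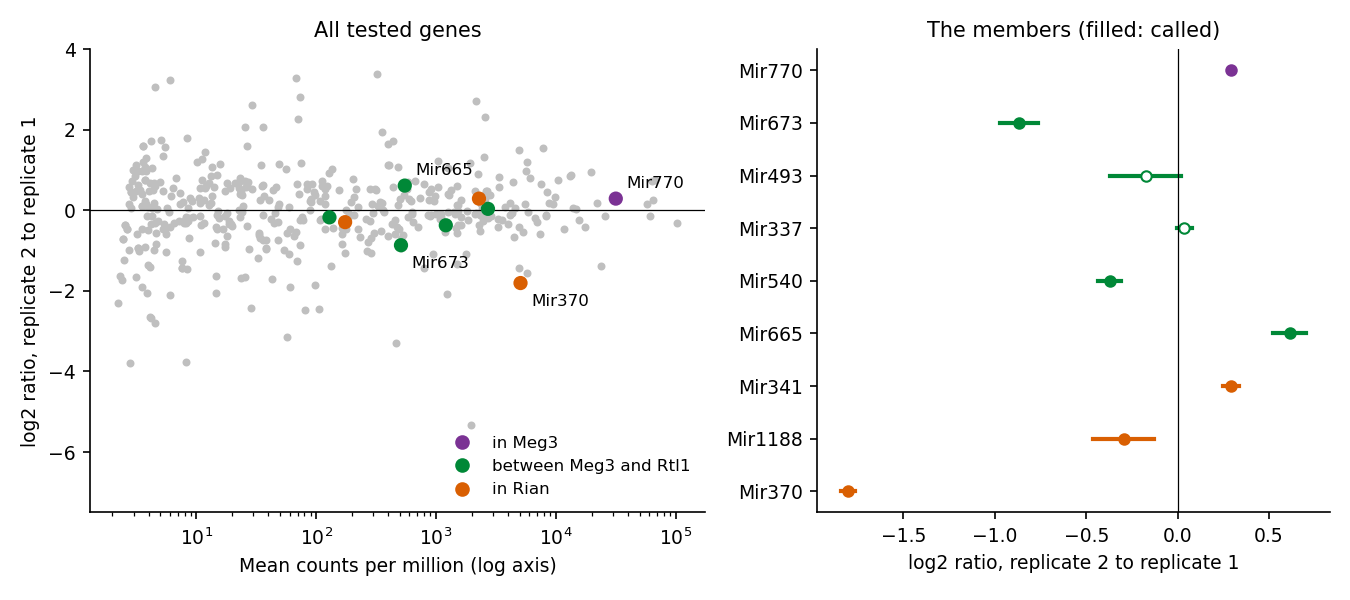
Left, log2 ratio of replicate 2 to replicate 1 against mean CPM (log axis) for all tested genes in grey and the 9 members in colour. Right, the members' ratios with 95% counting intervals, filled where called. Mir370 at -1.80 stands away from the other 8, which lie between -0.87 and 0.61.

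Ratios between neighbours within a library do not depend on how the libraries are scaled. Mir540 and Mir665, 167 bases apart, gave opposite calls. Mir540 had 3.10 counts for each count of Mir665 in replicate 1 (95% interval 2.95 to 3.25) and 1.56 in replicate 2 (1.47 to 1.66), a 1.98-fold change in their balance. Mir337 and Mir540, 194 bases apart, moved less, from 1.98 (1.92 to 2.04) to 2.63 (2.52 to 2.74). Pairs with Mir370 changed more. The balance of Mir341 and Mir370 went from 0.268 counts of Mir341 for each count of Mir370 (0.262 to 0.274) to 1.14 (1.11 to 1.18), a 4.28-fold change. Mir770 to Mir370, 54472 bases apart, changed 4.28-fold, from 3.71 to 15.9. Mir770 and Mir341 both had a log2 ratio of 0.29, so this restates the same change and is no separate result. Among pairs of consecutive members, the balance of Mir493 to Mir337 was nearest to constant, at 0.0510 (0.0471 to 0.0550) and 0.0440 (0.0393 to 0.0491).

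**Figure D4:**
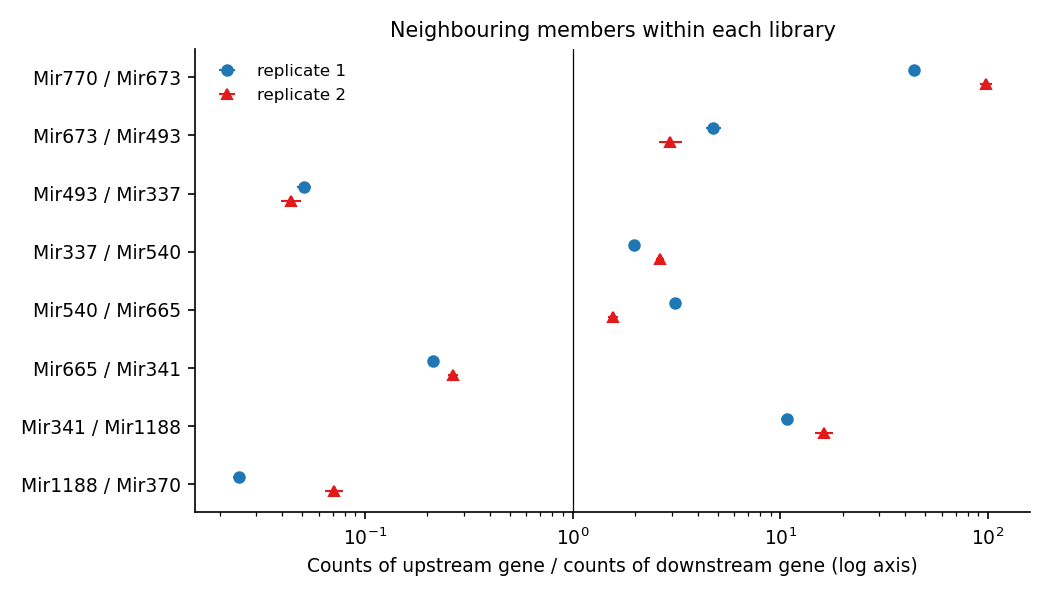
Counts of the upstream gene divided by counts of the downstream gene (log axis) for the 8 pairs of consecutive members, with circles for replicate 1, triangles for replicate 2 and 95% counting intervals. The points of Mir493 / Mir337 lie closest together, and those of Mir1188 / Mir370 are farthest apart, at 0.0248 and 0.0708.

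Beside the rest of the region, the members held the smallest share in both libraries. The list of genes antisense to Rtl1, led by Mir127 at 66820 ± 20215 CPM (SD, n = 2), held 7.89% of assigned counts in replicate 1 and 10.9% in replicate 2. Of the 10 names on that list 8 matched the annotation and 5 were detected. The other 2 names are Mir3070 copies, which M21 lists as Mir3070a and Mir3070b, and these were left out of the list. Its Mir3071 and Mir3544 lie on the minus strand, as Rtl1 does, with 0 counts in both libraries, and Mir3544 lies outside Rtl1. Of the 5 tested genes on that list, 4 were called higher in replicate 2 and 1 was not called. Over all tested genes, 32.9% were called higher. The Mir379 to Mir410 array of 38 genes, led by Mir382 at 14621 ± 553 CPM, held 7.91% and 7.69%. Of its 34 tested genes, 16 were higher and 14 lower, beside 32.9% and 32.0% of all tested genes. Median log2 ratios were 0.20 for the first list and 0.02 for the array, beside -0.17 for the members. The SD of the log2 ratio was 0.73 over the 9 members, 0.47 without Mir370, and 0.71 over the tested genes of the array. Whether these medians or spreads differ was not tested.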

How the data were processed

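MicroRNA reads from 2 libraries were analysed. The authors deposited, for each library, raw read counts by microRNA gene in 3 columns, unstranded and for either strand, on mm10 with GENCODE M21 per the text deposited beside the tables. Aligner and counter: not given in the sources used here. Of the stranded columns, the one with more counts was used as sense. Unmapped (17.1% and 20.6% of reads), multi-mapping (40.8% and 37.1%) and no-feature lines (5.98% and 5.82%) stayed out of library sizes and tests. All 2202 identifiers matched M21.

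CPM used all gene rows. TMM scaling used edgeR 4.0.16 and the alternative size factors DESeq2 1.42.0. With 1 library per pool, edgeR's quasi-likelihood test could not be fitted, and a two-sided exact binomial test was used, with Clopper-Pearson intervals at 95%, in scipy 1.17.1. The binomial test was run on counts simulated with counting error only, which cannot show its error rate between real replicates. Hairpins were folded with RNAfold 2.7.2.

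Members and lists were chosen with earlier results of these data known. No test across conditions was possible with 1 group. Per-base tracks and alignments were not analysed here. By rule, named genes were the members, genes overlapping them, sharing 20 bases or a seed with them, and the leading gene of each other list of the region. Outside it, Mir3070a, Mir3070b, Mir3071, Mir1906-1 and Gm23912 were named after their values were seen. So were single genes of the marker lists (copies of Mir124a, Mir1a and Mir133a, Mir206, Mir449b and Mir122). Alternatives were the unstranded column, other scalings, filters, denominators and thresholds, thinning, and leaving out each replicate.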

Additional observations from a re-analysis of the deposited data

How the results depend on the processing

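Of 53 values of the members' log2 ratios under 6 alternatives, 49 kept their direction and their side of the threshold. Mir337 changed sign with total counts (-0.084) and with no filter on low counts (-0.034). Mir493, at -0.30 and -0.25 under the same alternatives, then passed the threshold. Mir337 could not be tested in the unstranded column, where it has 1 count. The members' share of 4.43% became 4.95% without the most abundant gene of the table in the total, 1.27% without Mir770 and 2.14% when multi-mapping reads were added to the total, and lay between 4.30% and 4.57% when 1 replicate was left out. In the unstranded column 2 of 9 members kept their place in the order of levels, because Mir337 fell to the last place. Leaving out 1 replicate, 6 or 7 kept it. A ratio past 1.5-fold was reached by 3 members, Mir673, Mir665 and Mir370, against 1 past 2-fold, where 42.4% and 22.0% of all tested genes are. The members' median log2 ratio ranged from -0.30 to -0.10. No paired analysis was possible because there is 1 group. With 2 pools, the spread between animals cannot be estimated, and the depth of replicate 2 limits the precision for Mir493 and Mir1188.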
